A study of Mus musculus with 18 samples.

Results

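The genes described here are 40 genes of the liver's extracellular matrix and of the cells that make it, out of 17180 genes listed in at least 1 of the deposited tables. They were chosen by symbol and fall into 6 roles: 5 fibrillar collagens, 4 other interstitial collagens, 6 basement membrane genes, 10 glycoproteins, elastic fibre and proteoglycan genes, 7 crosslinking enzymes, proteases and their inhibitors, and 8 markers and receptors of stellate and contractile cells. Liver of C57BL/6 mice was profiled by poly(A)-selected RNA-seq at 0.5, 2, 4, 24, 48, 72, 120 and 168 h after removal of 2/3 of the liver (partial hepatectomy, PH) and after a sham operation. Each of the 9 groups has 2 libraries, and every library is 1 pool of RNA from 3 liver samples, so differences between single animals cannot be seen. The labels give neither sex nor age, nor the time at which the sham livers were taken.

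Collagens, laminins, nidogen and proteoglycans form the liver's scaffold, which is sparse along the sinusoids and denser around portal tracts and central veins. In resting liver the hepatic stellate cell stores vitamin A; when activated it takes on features of a contractile myofibroblast and makes fibrillar collagen, while portal fibroblasts, smooth muscle and endothelial cells make further parts of the matrix. Collagen chains are cut, folded and crosslinked before they form fibrils, metalloproteinases cut the matrix, and TIMP proteins inhibit those proteases.

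Complete tables were available for 16 of the 18 libraries. The table of sham replicate 2 ends at a count of 52 reads and that of 0.5 h replicate 1 at 157 reads, so a gene that is unlisted there is unknown, with upper bounds of 6.49 and 19.15 CPM (counts scaled to a library of 1000000 reads); these tables list 20 and 10 of the 40 genes. Library depth, in units of 1000000 reads, was 7.775 to 9.164, and 3 reads correspond to 0.327 to 0.386 CPM. The main tests used the 16 complete libraries, in which sham and 0.5 h have 1 library each, assumed to vary as the other groups do, and all 8 contrasts with sham share that 1 library. Of the 40 genes, 38 passed the filter on low counts. Fn1, which encodes fibronectin, had 0 to 6 reads in each of the complete libraries, and Lox, which encodes a lysyl oxidase that crosslinks collagen and elastin, had 0 to 24 reads; neither was tested. At most 2.16% of the Fn1 gene model was covered in any complete library, and whether that model captures the gene's transcripts was not tested, so these counts are not read as a lack of fibronectin RNA. All 12 genes of a stellate marker list were detected in every complete library, with a summed level of 162 to 277 CPM, beside 67782 to 158155 CPM for 6 hepatocyte genes. In such tissue RNA, fewer cells of a type and less RNA per cell cannot be told apart.

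Across the 9 groups 28 of the 38 tested genes differed by edgeR's quasi-likelihood F test at an adjusted p under 0.05, beside 42.8% of all 12199 genes tested. All 5 fibrillar collagens and all 4 other interstitial collagens were among them, as were 4 of 6 basement membrane genes, 6 of 9 tested glycoprotein, elastic fibre and proteoglycan genes, 4 of 6 tested enzymes and inhibitors, and 5 of 8 stellate and contractile genes. Lamb1, Lama4, Postn, Lum, Bgn, Timp1, Timp2, Des, Lrat and Reln did not pass that test. The group mean was highest at 72 h for 24 of the 38 genes, beside 7.48% of all genes, and at 4 h for 6 of them (Col4a1, Thbs1, Postn, Dcn, Timp3 and Pdgfra), beside 22.9% of all genes. For some of the 24 genes the peak at 72 h rests on 72 h replicate 2, as given below.

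**Figure D1:**
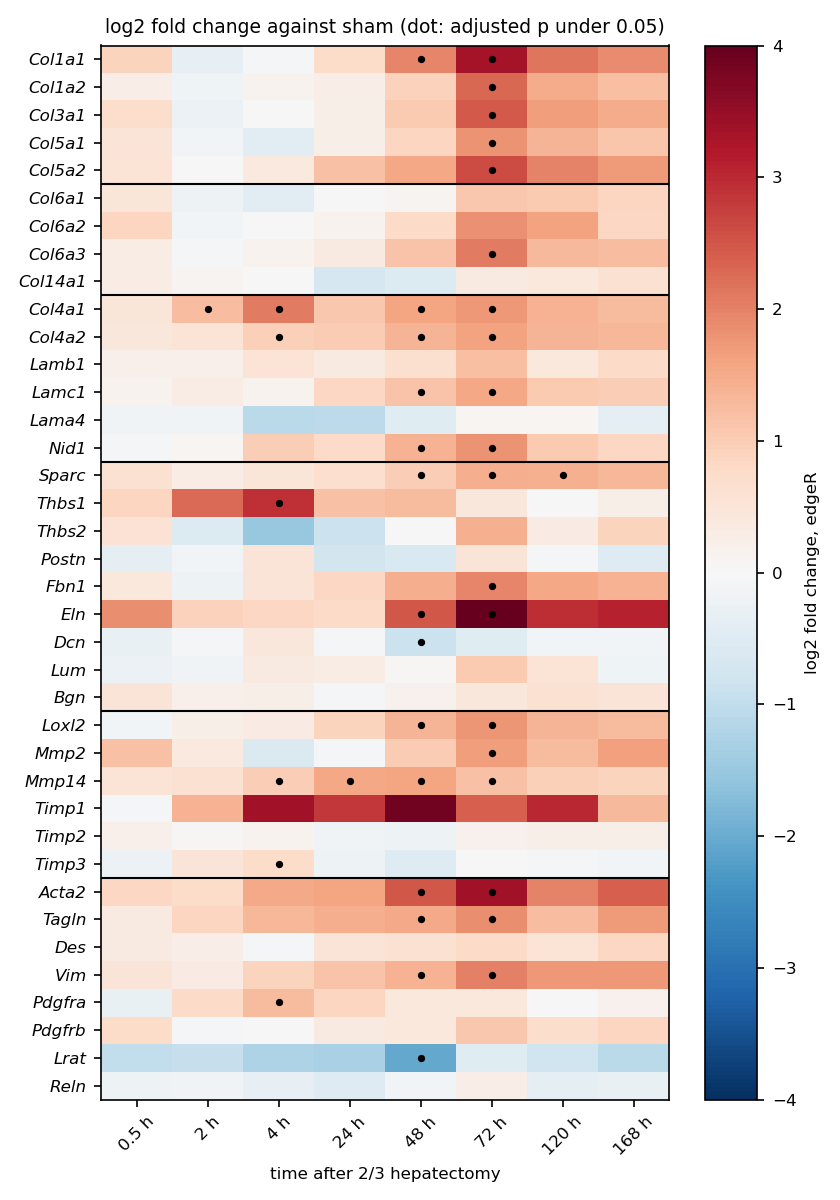
Rows are the 38 tested genes, grouped by role between the horizontal lines, and columns are the 8 times; colour gives the log2 fold change against sham in the 16 complete libraries, and a dot marks an adjusted p under 0.05. Dots gather at 48 h (14 genes) and 72 h (19 genes), while Col4a1 carries dots at 2, 4, 48 and 72 h; Timp1 is strongly coloured without a dot because sham replicate 1 held 1 read of it.

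Counted against sham, calls among the 38 genes were few early and most numerous at 72 h. At 0.5 h 0 were higher and 0 lower by edgeR, beside 0.0492% and 0% of all genes (3 were higher at an unadjusted p under 0.05, and DESeq2 called 0). At 2 h 1 gene was higher and 0 lower, beside 1.72% and 0.926% of all genes. At 4 h 6 were higher and 0 lower, beside 7.22% and 8.25%. At 24 h 1 was higher and 0 lower, beside 1.26% and 1.66%. At 48 h 12 were higher and 2 lower, beside 7.66% and 7.25%. At 72 h 19 were higher and 0 lower, beside 2.53% and 1.29%. At 120 h 1 was higher and 0 lower, beside 0.0246% and 0.082%, and at 168 h 0 were higher and 0 lower, beside 0.0246% and 0.0574%. The 168 h count is 0 although 23 genes were higher and 1 lower there at an unadjusted p under 0.05, and DESeq2 called 11 higher. At 120 h DESeq2 called 9, a fit of the 120 h and sham libraries alone called 5, and the fit with no filter on low counts called 17. Genes lower at an unadjusted p under 0.05 numbered 2 at 4 h, 3 at 24 h and 1 at 72 h, and DESeq2 called 0 of the 38 lower at any time other than 48 h (2). Single libraries set several of these counts. Over all contrasts, 16 of 65 calls passed whichever library was left out, the sham library aside, and of the 19 calls at 72 h 4 did. Without 4 h replicate 1, 1 gene was called at 4 h (Col4a1), without 48 h replicate 1 or 2 there were 6 or 8 calls at 48 h, and without either 24 h library there were 6 at 168 h. The single calls at 2 h and at 120 h were each lost when any 1 of several libraries was left out. The median log2 fold change of the 38 genes was 0.96 at 48 h and 1.51 at 72 h, with 1.05 at 120 h and 0.90 at 168 h, beside at most 0.07 over all genes.

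Between times, which does not involve the sham library, 24 h against 4 h gave 1 gene higher and 5 lower, beside 11.7% and 10.7% of all genes. The step of 72 h against 24 h gave 17 higher and 0 lower, beside 3.16% and 1.47%. For 168 h against 72 h the counts were 0 and 0 by edgeR, beside 1.52% and 1.67%, with 1 gene higher and 15 lower at an unadjusted p under 0.05 and 4 called lower by DESeq2. Without 24 h replicate 1 the calls of 72 h against 24 h numbered 5, and without 72 h replicate 1 those of 168 h against 72 h numbered 7. Scaling by library totals alone moved the median log2 fold change of all genes by -0.37 at 4 h and by 0.48 for 24 h against 4 h, which changed the split of calls. Under it 2 genes were higher (Col4a1 and Thbs1) and 2 lower (Lama4 and Lrat) at 4 h, and 8 were higher and 0 lower at 24 h against 4 h, so early directions below hold relative to the bulk of the transcriptome.

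The fibrillar collagens rose late. Col1a1 and Col1a2 encode the chains of type I collagen, Col3a1 the chain of type III collagen, and Col5a1 and Col5a2 chains of type V collagen, which starts and limits the width of type I fibrils. All 5 were higher at 72 h than in sham and higher at 72 h than at 24 h, and Col1a1 was already higher at 48 h. At 120 and 168 h the values of all 5 stayed above sham (unadjusted p under 0.05 at both times), but 0 of 5 passed the adjusted threshold there.

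Col1a1 (NCBI Gene 12842; chromosome 11, 94936224 to 94953042, plus strand, GENCODE M21 on GRCm38) measured 7.73 and 7.87 CPM in sham, 14.3 at 0.5 h, 4.82 and 7.36 at 2 h and 6.38 and 8.42 at 4 h. From 24 to 168 h the values were 9.08 and 16.7 CPM at 24 h, 34.7 and 25.8 at 48 h, 38.4 and 116 at 72 h, 36.8 and 30.9 at 120 h and 30.8 and 26.7 at 168 h, in TMM-scaled CPM as for all values below. Every library from 48 h on lay above both sham libraries and above both 24 h libraries, and 72 h replicate 2 stood far above all others. The log2 fold change was 1.97 ± 0.58 (SE, adjusted p = 0.0383) at 48 h, 3.32 ± 0.60 (SE, adjusted p = 0.01) at 72 h, and 2.59 ± 0.42 (SE, adjusted p = 0.00396) for 72 h against 24 h. At 120 h it was 2.13 ± 0.58 (SE, adjusted p = 0.25) and at 168 h 1.89 ± 0.58 (SE, adjusted p = 0.139). The 48 h call did not pass without 48 h replicate 1 or 2 (log2 1.71 and 2.14) or, narrowly, without 168 h replicate 1 or 2. Col1a2 (chromosome 6, 4504814 to 4541544, plus strand) measured 14.5 and 13.1 CPM in sham, 17.5 at 0.5 h, 10.5 and 15.3 at 2 h and 14.5 and 17.2 at 4 h. Later values were 14.2 and 20.4 CPM at 24 h, 29.7 and 25.1 at 48 h, 36.7 and 105 at 72 h, 48.2 and 32.6 at 120 h and 34.8 and 32.0 at 168 h. Its log2 fold change was 2.29 ± 0.51 (SE, adjusted p = 0.0255) at 72 h, and the 72 h libraries differed as those of Col1a1 did. The ratio of Col1a1 to Col1a2 in RPKM (reads per kilobase of gene model, scaled to the library, which allows genes of different length to be compared) was 1.28 and 1.12 at 48 h and 1.14 and 1.21 at 72 h, against 0.584 and 0.655 in sham, and no library at 48 or 72 h overlapped sham. At 2 h it was 0.502 and 0.527, and at 4 h 0.480 and 0.536. The ratio also lay above both sham values in 0.5 h replicate 2 (0.896) and at 24 h (0.699 and 0.894). The same held at 120 h (0.835 and 1.03) and at 168 h (0.967 and 0.910). No test was made of this ratio.

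Col3a1 (chromosome 1, 45311538 to 45349706, plus strand) had the highest level of the 5 per length, with 18.6 and 44.3 RPKM at 72 h against 5.27 and 4.49 RPKM in sham. In scaled counts it measured 28.4 and 25.0 CPM in sham, 46.7 at 0.5 h, 21.7 and 26.7 at 2 h and 29.8 and 27.3 at 4 h. At the later times it measured 28.0 and 39.6 CPM at 24 h, 65.3 and 52.9 at 48 h, 99.4 and 209 at 72 h, 108 and 71.1 at 120 h and 88.7 and 70.0 at 168 h. Both 72 h libraries were above every sham to 48 h library, and the 168 h libraries still did not overlap sham. Fitted against sham, the log2 fold change was 2.44 ± 0.42 (SE, adjusted p = 0.0082) at 72 h and 2.19 ± 0.31 (SE, adjusted p = 0.00167) for 72 h against 24 h. Col5a1, with the lower level of a minor fibril component, measured 7.23 CPM in sham, 10.4 at 0.5 h, 6.09 and 7.22 at 2 h and 4.31 and 6.55 at 4 h. In later libraries it held 6.58 and 10.3 CPM at 24 h, 13.1 and 13.4 at 48 h, 17.2 and 32.7 at 72 h, 20.6 and 16.4 at 120 h and 17.7 and 13.8 at 168 h. At 72 h its log2 fold change was 1.79 ± 0.41 (SE, adjusted p = 0.0283). Col5a2 measured 3.24 CPM in sham, 4.77 at 0.5 h, 1.84 and 4.50 at 2 h and 3.83 and 4.68 at 4 h. From 24 h on it measured 6.47 and 8.23 CPM at 24 h, 10.7 and 8.36 at 48 h, 14.4 and 25.6 at 72 h, 15.8 and 10.1 at 120 h and 11.9 and 9.40 at 168 h, each group mean from 4 to 72 h above the one before. At 72 h its log2 fold change was 2.62 ± 0.51 (SE, adjusted p = 0.0136). For both type V chains 1 sham library gives the level, because sham replicate 2 does not list them.

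**Figure D2:**
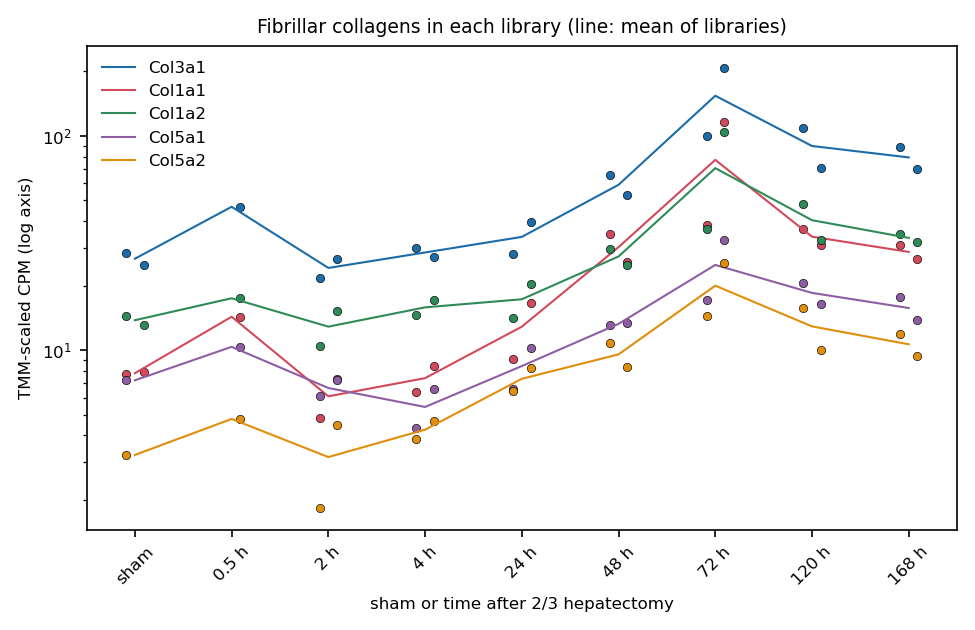
Points are TMM-scaled CPM on a log axis for each library that lists the gene, offset left for replicate 1 and right for replicate 2; lines join group means, from sham to 168 h. All 5 genes have their highest mean at 72 h, where replicate 2 lies above replicate 1 for each (116 and 38.4 CPM for Col1a1).

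The level of this peak rests on 72 h replicate 2, and for some of the 40 genes the time of the peak does too. In 72 h replicate 1 Fbn1 held 7.52 CPM, below its 48 h mean of 8.58 CPM. Eln held 11.8 CPM there, above every complete library of another group. Also in replicate 1, Col1a2 (36.7 CPM), Col5a1 (17.2 CPM), Col6a1, Col6a2, Sparc and Lum lay below their 120 h means. Mmp2 and Thbs2 lay below their 168 h means there. For these genes, as for Fbn1, the time of the highest mean thus rests on replicate 2. Of the 38 tested genes, 37 were higher in replicate 2 than in replicate 1 at 72 h, with a median log2 difference of 0.45, beside 0.01 over all genes. Replicate 2 was also the higher for 31 of the 38 at 24 h (median 0.33, beside 0.03) and for 28 at 2 h (0.25, beside 0.01). The other complete pairs had 12 to 21 such genes. For these log2 differences a small constant was added to each CPM value. On that scale 7 of the 38 were at least 2-fold higher in replicate 2 at 72 h, beside 2.07% of all genes. Without the constant, Thbs2 (2.07-fold), Lum (2.04-fold) and Timp1 (3.34-fold, on few reads) also exceeded 2-fold. Col1a1 was 3.03-fold, Col1a2 2.85-fold, Eln 2.35-fold and Col3a1 2.10-fold higher in replicate 2. Without that library the 72 h calls against sham numbered 4, namely Col1a1 (log2 2.26), Eln (3.18), Loxl2 (1.63) and Sparc (1.18), and without it those of 72 h against 24 h numbered 4, namely Col1a1 (1.56), Col3a1 (1.55), Eln (2.45) and Col14a1 (0.83). None of the calls changed direction. Other RNAs also differed between the pair. The proliferation marker Mki67 was at 114 CPM in replicate 2 and 39.4 CPM in replicate 1. The 6 cell division genes summed to 371 and 190 CPM, the 6 cholangiocyte genes to 98.9 and 38.6 CPM, with Spp1 alone at 76.9 and 21.7 CPM, and the 8 portal fibroblast and smooth muscle genes outside the 40 to 22.5 and 15.2 CPM. In sham replicate 1 those 3 lists summed to 48.3, 39.0 and 7.61 CPM. Of the cholangiocyte genes, Krt19 held 4.27 and 2.94 CPM and Krt7 2.48 and 1.85 CPM in the pair. In sham replicate 1 they held 0.499 and 0.249 CPM. Epcam was also above sham in both 72 h libraries, Sox9 and Spp1 lay on both sides of it, and Cftr had no reads in these libraries. The whole list of 11 portal fibroblast and smooth muscle genes, which includes Eln, Acta2 and Tagln, summed to 85.9 and 52.4 CPM in the pair, against 14.6 CPM in sham. The 12 stellate genes summed to 220.0 and 199 CPM at 72 h, against 234 CPM in sham. The part of these RNAs in the collagen values was not tested.

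**Figure D3:**
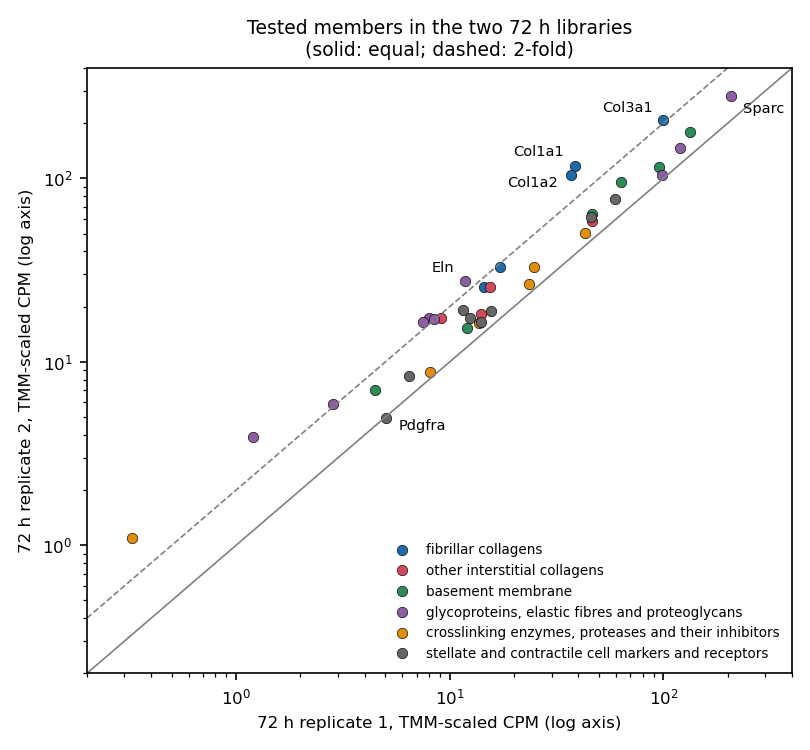
Each point is 1 of the 38 tested genes, with TMM-scaled CPM in 72 h replicate 1 on the x axis and in 72 h replicate 2 on the y axis, both on log axes, coloured by role; the solid line marks equal values and the dashed line a 2-fold excess in replicate 2. Points lie above the solid line for 37 genes, Pdgfra lies just under it, and Col1a1 and Col1a2 lie above the dashed line.

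Among the other interstitial collagens, the chains of microfibril-forming type VI collagen rose with the fibrillar ones, and Col14a1, which encodes a collagen that attaches to fibril surfaces, followed another course. Col6a3 was higher at 72 h than in sham, and all 4 genes were higher at 72 h than at 24 h. Col6a3 measured 4.86 CPM in sham, 5.94 at 0.5 h, 4.11 and 5.31 at 2 h and 3.83 and 6.86 at 4 h. From 24 to 168 h the values were 5.22 and 7.20 CPM at 24 h, 12.5 and 9.05 at 48 h, 15.5 and 25.5 at 72 h, 14.9 and 9.24 at 120 h and 12.5 and 10.4 at 168 h. Both 72 h libraries were above all complete sham to 48 h libraries. The fitted log2 fold change was 2.07 ± 0.45 (SE, adjusted p = 0.023) at 72 h against sham. Col6a1 and Col6a2 ranged from 4.99 to 18.2 CPM and from 2.83 to 17.3 CPM over the complete libraries, with log2 fold changes of 1.10 ± 0.25 (SE, adjusted p = 0.0226) and 1.67 ± 0.36 (SE, adjusted p = 0.0175) for 72 h against 24 h. Against sham at 72 h they were at 1.08 ± 0.32 and 1.81 ± 0.48, which did not pass. Col14a1 had the highest level per length of the 4, with 10.6 and 8.96 RPKM at 168 h against 6.60 and 4.63 RPKM in sham. In scaled counts it measured 41.4 and 29.99 CPM in sham, 33.6 and 51.3 at 0.5 h, 38.7 and 51.1 at 2 h and 38.6 and 44.1 at 4 h. Later values were 26.0 and 25.9 CPM at 24 h, 28.6 and 28.1 at 48 h, 46.6 and 58.8 at 72 h, 57.5 and 53.7 at 120 h and 68.9 and 58.1 at 168 h. The 24 and 48 h libraries were the lowest and did not overlap those at 4 h or at 72 h. It fell at 24 h against 4 h, by -0.67 ± 0.17 (SE, adjusted p = 0.013), and rose at 72 h against 24 h, by 1.02 ± 0.17 (SE, adjusted p = 0.00401). Under library totals alone, or without 4 h replicate 2 (log2 -0.57), the fall at 24 h against 4 h did not pass. The rise of the type VI genes over 24 h did not pass without 24 h replicate 1 or without 72 h replicate 2 (log2 1.04 and 0.89 for Col6a1), nor, for Col6a1 and Col6a2, without 24 h replicate 2 (log2 1.18 and 1.62).

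Among basement membrane genes, calls began at 2 h. Col4a1 and Col4a2 encode the chains of the main type IV collagen, Lamb1, Lamc1 and Lama4 encode laminin chains, and Nid1 encodes nidogen, which links laminin to type IV collagen. Of the 6, Col4a1 was higher at 2 h, Col4a1 and Col4a2 at 4 h, and Col4a1, Col4a2, Lamc1 and Nid1 at 48 h and at 72 h. Lamb1 ranged from 4.68 to 15.3 CPM and Lama4 from 2.39 to 7.05 CPM over the complete libraries, and neither passed a test.

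Col4a1 (chromosome 8, 11198423 to 11312826, minus strand) measured 47.3 and 44.6 CPM in sham, 48.3 and 65.9 at 0.5 h, 110.1 and 113 at 2 h and 230.4 and 168 at 4 h. At the later times it measured 78.1 and 122 CPM at 24 h, 133 and 147 at 48 h, 134 and 179 at 72 h, 129 and 117 at 120 h and 124 and 104 at 168 h. Both 2 h libraries already lay above all 4 sham and 0.5 h libraries, and 4 h replicate 1 held the highest value of the series. Its log2 fold change was 1.24 ± 0.28 (SE, adjusted p = 0.0352) at 2 h, 2.08 ± 0.29 (SE, adjusted p = 0.000547) at 4 h, 1.57 ± 0.29 (SE, adjusted p = 0.00414) at 48 h and 1.73 ± 0.29 (SE, adjusted p = 0.00754) at 72 h. It then fell at 24 h against 4 h, by -0.99 ± 0.22 (SE, adjusted p = 0.00558). Under library totals alone this fall did not pass (log2 -0.51). Col4a2 (chromosome 8, 11312805 to 11449287, plus strand) measured 34.7 and 39.0 CPM in sham, 45.9 and 47.2 at 0.5 h, 47.6 and 54.0 at 2 h and 77.5 and 57.4 at 4 h. In later libraries it held 55.1 and 84.4 CPM at 24 h, 86.0 and 92.8 at 48 h, 95.4 and 115 at 72 h, 89.7 and 86.5 at 120 h and 94.9 and 77.5 at 168 h. For Col4a2 the log2 fold change was 0.96 ± 0.27 (SE, adjusted p = 0.0267) at 4 h, where replicate 2 lay only a little above the 2 h libraries, 1.37 ± 0.27 (SE, adjusted p = 0.00588) at 48 h and 1.60 ± 0.27 (SE, adjusted p = 0.00763) at 72 h. Without 4 h replicate 1, Col4a1 was still called at 4 h (log2 1.83) and Col4a2 was not (log2 0.73, adjusted p = 0.136), nor was the later fall of Col4a1 (log2 -0.75). The 2 h call did not pass without 2 h replicate 1 or 2 (log2 1.26 and 1.22) or, narrowly, without any 1 of the 48 and 168 h libraries.

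The pair of type IV genes lies head to head, with annotated first exons that overlap by 22 bases on opposite strands, and with the strand setting of the counts not given in the sources used here. The ratio of Col4a1 to Col4a2 in RPKM needs no scaling between libraries. It was 1.32 and 1.11 in sham, 1.02 and 1.35 at 0.5 h, 2.24 and 2.04 at 2 h, 2.88 and 2.84 at 4 h, 1.37 and 1.40 at 24 h, 1.50 and 1.54 at 48 h, 1.36 and 1.51 at 72 h, 1.39 and 1.32 at 120 h and 1.26 and 1.30 at 168 h. The 2 h and 4 h libraries overlapped no other group. The ratio was singled out after its values were seen. It is given as a description, and a test made on the same values is not reported. The mean ratio was 2.86 ± 0.03 at 4 h, against 1.21 ± 0.15 in sham (SD, n = 2 each).

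**Figure D4:**
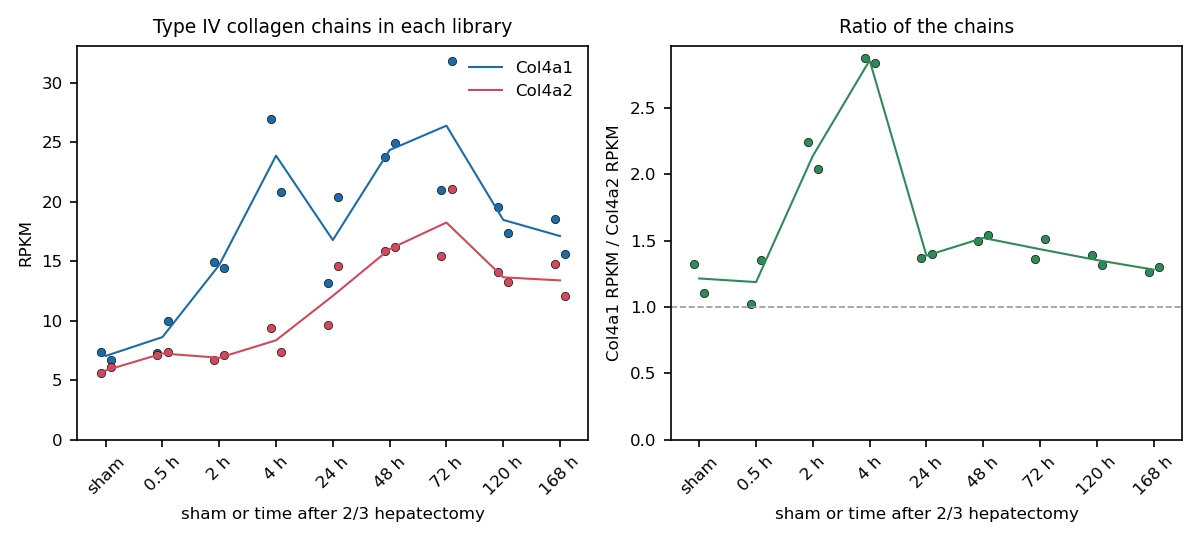
Left, RPKM of Col4a1 and Col4a2 in each of the 18 libraries from sham to 168 h, with lines joining group means; right, the ratio of Col4a1 to Col4a2 in the same libraries, with a dashed line at equal levels. The ratio stands at 2.88 and 2.84 at 4 h and between 1.02 and 1.54 in all groups other than 2 and 4 h.

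Lamc1, the gamma chain shared by most laminins, measured 18.8 and 19.0 CPM in sham, 19.8 and 20.7 at 0.5 h, 20.7 and 25.6 at 2 h and 24.4 and 17.2 at 4 h. From 24 h on it measured 33.1 and 33.9 CPM at 24 h, 38.0 and 45.4 at 48 h, 46.6 and 64.1 at 72 h, 39.7 and 37.8 at 120 h and 38.9 and 36.1 at 168 h. The levels stepped up between 4 and 24 h without overlap, by 0.69 ± 0.20 (SE, adjusted p = 0.0265), and this was the single increase called at 24 h against 4 h. Against sham its log2 fold change was 1.15 ± 0.25 (SE, adjusted p = 0.011) at 48 h and 1.56 ± 0.26 (SE, adjusted p = 0.00705) at 72 h. Nid1 measured 22.9 and 21.6 CPM in sham, 21.5 at 0.5 h, 21.3 and 26.8 at 2 h and 56.6 and 33.8 at 4 h. From 24 to 168 h the values were 31.1 and 46.2 CPM at 24 h, 61.4 and 58.4 at 48 h, 63.0 and 95.2 at 72 h, 46.5 and 48.7 at 120 h and 48.4 and 33.0 at 168 h. Its 4 h replicates differed (56.6 and 33.8 CPM), and the 48 and 72 h libraries were all above sham. The log2 fold change of Nid1 was 1.38 ± 0.36 (SE, adjusted p = 0.0225) at 48 h and 1.79 ± 0.37 (SE, adjusted p = 0.0177) at 72 h. Its 48 h call did not pass without 48 h replicate 1 or 2 (log2 1.32 and 1.39), and the step of Lamc1 over 4 h did not without 4 h replicate 2 (log2 0.46), 24 h replicate 1 (0.65) or 24 h replicate 2 (0.63).

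Glycoproteins, elastic fibre genes and proteoglycans did not move as 1 group. Eln, Sparc and Fbn1 rose late, Thbs1 rose early, and Dcn fell at 48 h. Postn, Lum and Bgn passed no test in the 16 libraries, and Thbs2 passed at 72 h against 24 h.

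Eln (chromosome 5, 134702593 to 134747323, minus strand), which encodes elastin, the core of elastic fibres, measured 1.25 CPM in sham, 4.54 at 0.5 h, 2.55 and 2.18 at 2 h and 1.44 and 2.96 at 4 h. Later values were 1.77 and 2.47 CPM at 24 h, 8.35 and 5.61 at 48 h, 11.8 and 27.7 at 72 h, 10.9 and 8.78 at 120 h and 11.2 and 10.1 at 168 h. The libraries from 48 h on held 5.61 to 27.7 CPM, all above every earlier complete library. Its log2 fold change was 2.47 ± 0.63 (SE, adjusted p = 0.0207) at 48 h, 3.97 ± 0.62 (SE, adjusted p = 0.00539) at 72 h and 3.21 ± 0.42 (SE, adjusted p = 0.000913) for 72 h against 24 h. The sham level rests on 10 reads in replicate 1, and the 48 h calls of Eln and Sparc did not pass without 48 h replicate 1 (log2 2.13 and 0.89). Fbn1, which encodes fibrillin of the microfibrils on which elastin is laid down, measured 3.12 CPM in sham, 4.19 at 0.5 h, 1.84 and 3.54 at 2 h and 4.47 and 4.37 at 4 h. At the later times it measured 4.59 and 6.48 CPM at 24 h, 9.88 and 7.28 at 48 h, 7.52 and 16.5 at 72 h, 7.99 and 10.2 at 120 h and 8.23 and 8.09 at 168 h. It was called at 72 h (1.94 ± 0.50 SE, adjusted p = 0.0485), a call lost when any 1 of 9 libraries was left out, and 2442 of its exon bases are shared with a gene annotated on the opposite strand. Sparc, a collagen-binding glycoprotein, ranged from 88.4 to 280.1 CPM over the complete libraries, and sham replicate 2 held 73.1 CPM. It was higher at 48 h (0.998 ± 0.22 SE, adjusted p = 0.0112), 72 h (1.46 ± 0.23 SE, adjusted p = 0.00539) and 120 h (1.42 ± 0.23 SE, adjusted p = 0.0326), where it was the single call, and at 168 h it missed the threshold (1.33 ± 0.23 SE, adjusted p = 0.0503).

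Thbs1, which encodes thrombospondin-1, a matrix protein that can activate latent TGF-beta, measured 1.87 CPM in sham, 3.38 at 0.5 h, 8.64 and 9.54 at 2 h and 21.1 and 7.33 at 4 h. In later libraries it held 2.71 and 5.76 CPM at 24 h, 4.99 and 4.03 at 48 h, 1.20 and 3.87 at 72 h, 2.20 and 1.52 at 120 h and 2.33 and 2.08 at 168 h. The 2 h libraries and 4 h replicate 1 were the highest of the complete libraries, and 4 h replicate 2 lay below both 2 h libraries. The log2 fold change of Thbs1 was 2.91 ± 0.75 (SE, adjusted p = 0.0186) at 4 h, and it fell at 24 h against 4 h by -1.74 ± 0.51 (SE, adjusted p = 0.0258). Neither call passed without 4 h replicate 1 (log2 1.96 and -0.79). The second did not pass without 24 h replicate 1 (log2 -1.35) or under library totals alone (log2 -1.24). Thbs2, which encodes a related thrombospondin, ranged from 0.468 to 5.86 CPM and was higher at 72 h than at 24 h (2.29 ± 0.51 SE, adjusted p = 0.0202). Dcn, which encodes decorin, a small proteoglycan that binds collagen and TGF-beta, had the highest level per length of the 40 genes in sham, with 43.8 and 50.5 RPKM at 48 h against 77.1 and 65.8 RPKM in sham. In scaled counts it measured 141 and 124 CPM in sham, 112 and 114 at 0.5 h, 149.8 and 124 at 2 h and 202 and 187 at 4 h. From 24 h on it measured 131 and 137 CPM at 24 h, 69.7 and 85.0 at 48 h, 98.1 and 104 at 72 h, 129 and 132 at 120 h and 121 and 139 at 168 h. The 48 h libraries were the lowest of the series, and its log2 fold change there was -0.87 ± 0.17 (SE, adjusted p = 0.00651). At 24 h against 4 h it was -0.53 ± 0.14 (SE, adjusted p = 0.0176), a call that was lost under library totals alone and without 4 h replicate 1 (log2 -0.48). The other proteoglycans Bgn (biglycan) and Lum (lumican) ranged from 83.4 to 159 CPM and from 4.09 to 17.2 CPM.

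A crosslinking enzyme and both metalloproteinases rose. Loxl2, Mmp2 and Mmp14 were called at 72 h, whereas of the 3 TIMP genes 1 was called, Timp3 at 4 h. Mmp14 (chromosome 14, 54431612 to 54445364, plus strand), a membrane-bound metalloproteinase that activates MMP2, measured 20.8 and 26.1 CPM in sham, 32.8 and 30.6 at 0.5 h, 29.2 and 33.9 at 2 h and 47.1 and 35.7 at 4 h. From 24 to 168 h the values were 54.4 and 68.7 CPM at 24 h, 57.9 and 66.1 at 48 h, 42.9 and 50.1 at 72 h, 33.1 and 47.2 at 120 h and 36.8 and 40.9 at 168 h. The 24 and 48 h libraries were the highest, and its log2 fold change was 0.99 ± 0.26 (SE, adjusted p = 0.0216) at 4 h, 1.56 ± 0.26 (SE, adjusted p = 0.00999) at 24 h, 1.57 ± 0.26 (SE, adjusted p = 0.00263) at 48 h and 1.16 ± 0.26 (SE, adjusted p = 0.0259) at 72 h. Mmp14 was the single gene of the 38 called at 24 h against sham, and its 4 h call did not pass without 4 h replicate 1 (log2 0.78). Mmp2, a secreted protease that cuts denatured and type IV collagen, measured 2.62 CPM in sham, 5.94 at 0.5 h, 3.97 and 2.86 at 2 h and 1.44 and 2.03 at 4 h. Later values were 2.09 and 2.88 CPM at 24 h, 4.22 and 6.39 at 48 h, 8.07 and 8.83 at 72 h, 6.02 and 6.55 at 120 h and 10.2 and 6.34 at 168 h. It was higher at 72 h by 1.69 ± 0.43 (SE, adjusted p = 0.0458) and at 72 h against 24 h by 1.76 ± 0.33 (SE, adjusted p = 0.00798). The call against sham was lost when any 1 of 10 libraries was left out. Loxl2, a lysyl oxidase-like enzyme that crosslinks collagen, measured 7.36 CPM in sham, 6.75 at 0.5 h, 8.93 and 8.31 at 2 h and 8.78 and 9.67 at 4 h. At the later times it measured 12.4 and 14.7 CPM at 24 h, 19.6 and 18.2 at 48 h, 23.6 and 26.7 at 72 h, 22.6 and 15.3 at 120 h and 18.01 and 17.3 at 168 h. Its libraries from 24 h on lay above all earlier complete ones, with log2 fold changes of 1.36 ± 0.27 (SE, adjusted p = 0.00594) at 48 h and 1.77 ± 0.27 (SE, adjusted p = 0.00527) at 72 h.

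Timp3, a TIMP that binds to the matrix, ranged from 18.3 to 50.5 CPM, was higher at 4 h (0.73 ± 0.22 SE, adjusted p = 0.0353) and fell at 24 h against 4 h (-0.94 ± 0.17 SE, adjusted p = 0.00177). Exons annotated to Syn3 on the opposite strand overlap 1733 of its exon bases, and reads of the pair may not be told apart. The 4 h call did not pass without 4 h replicate 1 or 2 (log2 0.79 and 0.68). Under library totals alone neither call of Timp3 passed (log2 0.37 at 4 h and -0.46 for 24 h against 4 h). Timp2 ranged from 10.6 to 17.2 CPM. Timp1 reached 2.46 CPM at most, with 1 read in sham replicate 1, too few to give a fold change.

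Stellate and contractile genes divided. The contractile and mesenchymal genes Acta2, Tagln and Vim rose, whereas Lrat, the enzyme that esterifies retinol for storage and a marker of quiescent stellate cells, fell at 48 h, and the stellate markers Reln and Des passed no test. Acta2 (chromosome 19, 34241090 to 34255590, minus strand), which encodes alpha smooth muscle actin, measured 1.50 CPM in sham, 2.68 at 0.5 h, 2.27 and 2.72 at 2 h and 5.58 and 3.12 at 4 h. In later libraries it held 4.38 and 4.52 CPM at 24 h, 12.6 and 4.43 at 48 h, 11.6 and 19.2 at 72 h, 7.65 and 4.21 at 120 h and 5.89 and 9.95 at 168 h. At 48 h its libraries differed widely, and replicate 2 lay within the range of the 24 h libraries. Its log2 fold change was 2.50 ± 0.73 (SE, adjusted p = 0.0362) at 48 h, 3.35 ± 0.72 (SE, adjusted p = 0.0215) at 72 h and 1.78 ± 0.46 (SE, adjusted p = 0.0448) for 72 h against 24 h, on 12 reads in sham replicate 1. Tagln, which encodes the smooth muscle protein transgelin, measured 4.24 CPM in sham, 5.47 at 0.5 h, 5.95 and 9.40 at 2 h and 13.7 and 7.80 at 4 h. From 24 h on it measured 9.08 and 14.2 CPM at 24 h, 13.1 and 11.0 at 48 h, 14.0 and 16.6 at 72 h, 12.0 and 7.96 at 120 h and 13.2 and 14.7 at 168 h. Every library from 2 h on lay above the complete sham and 0.5 h libraries, and the log2 fold change was 1.51 ± 0.44 (SE, adjusted p = 0.0356) at 48 h and 1.85 ± 0.44 (SE, adjusted p = 0.0339) at 72 h. At 48 h neither Acta2 (log2 1.53) nor Tagln (log2 1.35) passed without 48 h replicate 1, nor Tagln without 48 h replicate 2 (log2 1.60), and the rise of Acta2 over 24 h was lost when any 1 of 8 libraries was left out. An antisense transcript shares 1241 of the exon bases of Tagln.

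Vim, which encodes the intermediate filament protein vimentin of mesenchymal cells and leukocytes, had the highest level per length of the 8, with 33.5 and 49.5 RPKM at 72 h against 9.47 and 9.12 RPKM in sham. In scaled counts it measured 16.8 and 16.7 CPM in sham, 24.2 at 0.5 h, 23.0 and 19.3 at 2 h and 36.9 and 25.3 at 4 h. From 24 to 168 h the values were 22.8 and 51.1 CPM at 24 h, 46.3 and 41.3 at 48 h, 59.2 and 76.9 at 72 h, 53.1 and 59.4 at 120 h and 42.2 and 70.3 at 168 h. For Vim the log2 fold change was 1.38 ± 0.43 (SE, adjusted p = 0.0482) at 48 h and 2.02 ± 0.44 (SE, adjusted p = 0.0232) at 72 h, and at 168 h 1.74 ± 0.44 (SE, adjusted p = 0.111). Kupffer cell and macrophage markers, 8 genes, were at their highest late, summing to 943 to 1453 CPM at 120 and 168 h against 589 CPM in sham. At 72 h, where Vim was highest, they summed to 475 and 511 CPM. Their part in the Vim values was not tested. The 48 h call of Vim was lost when any 1 of 8 libraries was left out, the 48 h libraries among them (log2 1.27 and 1.43).

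Lrat (chromosome 3, 82892579 to 82903973, minus strand) measured 20.7 and 17.6 CPM in sham, 10.4 at 0.5 h, 15.4 and 6.54 at 2 h and 4.63 and 13.1 at 4 h. Later values were 9.91 and 7.10 CPM at 24 h, 5.66 and 4.43 at 48 h, 12.4 and 17.4 at 72 h, 11.2 and 12.6 at 120 h and 10.3 and 9.29 at 168 h. Every library after hepatectomy that lists Lrat was below both sham libraries (0.5 h replicate 1 does not list it), the 48 h pair and 4 h replicate 1 by the most and 72 h replicate 2 by the least. The log2 fold change was -2.03 ± 0.49 (SE, adjusted p = 0.0162) at 48 h and -0.47 ± 0.47 (SE, adjusted p = 0.628) at 72 h. The 48 h call did not pass without 48 h replicate 1 or 2 (log2 -2.25 and -1.89), and Lrat did not pass the test among the 9 groups (adjusted p = 0.0824). Reln, a stellate cell product, ranged from 27.9 to 61.7 CPM and Des, a muscle-type intermediate filament of stellate cells, from 3.24 to 9.15 CPM over the complete libraries. Of the PDGF receptors, through which stellate cells are driven to divide, Pdgfrb differed among groups (adjusted p = 0.0178) with 15.6 and 19.0 CPM at 72 h against 8.11 and 6.87 CPM in sham, but was not called in any contrast of the 16 libraries. Pdgfra was higher at 4 h (1.26 ± 0.40 SE, adjusted p = 0.048), with 10.2 and 7.80 CPM at 4 h against 3.74 CPM in sham replicate 1. That call was lost when any 1 of 8 libraries was left out, the 4 h libraries among them (log2 1.06 and 1.45).

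The 8 stellate list genes that are not among the 40 summed to 93.8 and 113 CPM at 48 h and to 118 and 114 CPM at 72 h, against 157 CPM in sham. The 8 portal fibroblast and smooth muscle list genes outside the 40 summed to 14.4 and 11.0 CPM at 48 h and to 15.2 and 22.5 CPM at 72 h, against 7.61 CPM in sham. The stellate sum outside the 40 was thus lower at 48 and 72 h than in the 1 complete sham library, but its genes went both ways. Ecm1, with 81.6 of the 157 CPM in sham, held 47.2 and 54.8 CPM at 48 h and 47.1 and 45.2 CPM at 72 h, and Vipr1 and Colec11 were also below sham in all 4 of these libraries. Ngfr held 8.16 and 6.10 CPM at 48 h and 9.38 and 7.54 CPM at 72 h, against 3.87 CPM in sham, and Cygb and Hand2 were also above sham in all 4. Scaled by library totals alone, the whole stellate list of 12 genes summed to 192 and 193 CPM at 48 h and to 206 and 260 CPM at 72 h, against 242 CPM in sham, so 72 h replicate 2 then lay above sham. The sum of the sinusoidal endothelium list of 10 genes stayed within 399 to 597 CPM over all complete libraries, but single genes moved both ways. At 4 h Lyve1 held 115 and 112 CPM against 25.2 CPM in sham replicate 1. Kdr held 23.1 and 24.0 CPM there against 56.4 CPM.

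**Figure D5:**
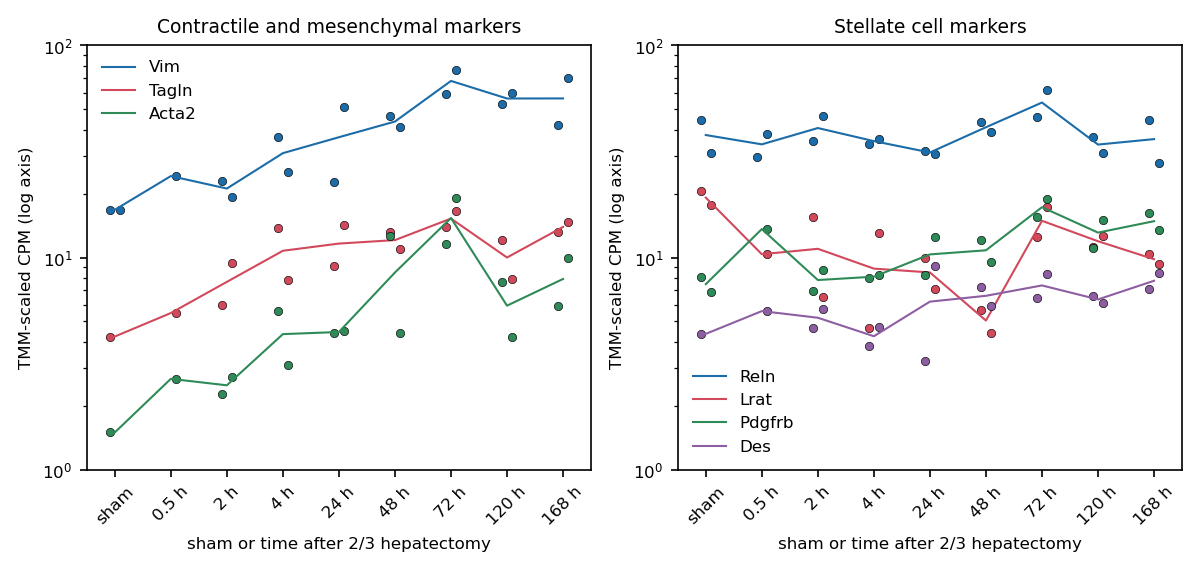
Points are TMM-scaled CPM on log axes for each library that lists the gene, from sham to 168 h, and lines join group means; left, Vim, Tagln and Acta2; right, Reln, Lrat, Pdgfrb and Des. Acta2 has 11.6 and 19.2 CPM at 72 h against 1.50 CPM in sham, while Lrat has 5.66 and 4.43 CPM at 48 h against 20.7 and 17.6 CPM in sham.

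Promoter sequence in the RefSeq table (GRCm38.p6) was found for 25 of the 40 genes, in 27 windows. It is shown for genes whose course sets them apart: Acta2, the contractile gene that rose most; Col3a1, the most abundant fibrillar collagen; Mmp14, called at 4 times; and Lrat, which fell. Each is given 5′ to 3′ on the gene's strand and ends at the base before the annotated RefSeq start, except that for Acta2 only 30 bases around each match are given. There 217 of the 250 upstream bases are exon of Acta2 itself in GENCODE M21, which places the start of the gene further upstream. Both Acta2 boxes lie within those bases, and their distances are counted from the RefSeq start. Capitals mark a TATAAA (either strand) or a CArG box, the binding sequence of serum response factor in muscle genes, taken here as CC and GG around 6 bases of which at most 1 is G or C.
Acta2, chr19:34255438-34255467, minus strand, box starting 84 bases before the start: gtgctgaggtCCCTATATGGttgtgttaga
Acta2, chr19:34255388-34255417, minus strand, box starting 34 bases before the start: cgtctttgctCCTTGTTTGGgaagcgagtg
Col3a1, chr1:45311288-45311537, plus strand: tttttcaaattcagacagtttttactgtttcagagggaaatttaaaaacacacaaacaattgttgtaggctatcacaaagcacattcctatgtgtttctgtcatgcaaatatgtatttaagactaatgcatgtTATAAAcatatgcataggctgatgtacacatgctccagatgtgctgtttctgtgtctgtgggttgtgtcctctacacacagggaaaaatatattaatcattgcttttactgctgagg
Mmp14, chr14:54431348-54431597, plus strand: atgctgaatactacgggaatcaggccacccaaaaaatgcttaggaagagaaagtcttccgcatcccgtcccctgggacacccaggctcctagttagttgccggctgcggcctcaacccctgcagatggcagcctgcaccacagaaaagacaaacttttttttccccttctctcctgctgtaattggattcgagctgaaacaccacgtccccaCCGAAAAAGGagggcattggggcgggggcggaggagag
Lrat, chr3:82903975-82904224, minus strand: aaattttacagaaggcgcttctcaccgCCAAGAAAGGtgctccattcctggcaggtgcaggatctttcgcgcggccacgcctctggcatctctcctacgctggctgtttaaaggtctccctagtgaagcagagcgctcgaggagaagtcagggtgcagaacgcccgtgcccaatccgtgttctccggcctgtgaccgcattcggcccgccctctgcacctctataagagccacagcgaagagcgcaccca
A CArG box stood in 6 of the 27 windows (22.22%), beside 8.59% of all 32851 windows of 250 upstream bases, and TATAAA in 4 (14.81%), beside 12.37%. The CCAAT sequence stood in 11 (40.74%), beside 33.85%, and TGANTCA, the AP-1 sequence, in 1 (3.7%), beside 6.75%, both on either strand. CArG boxes were in windows of genes that rose late (Acta2, Col1a2, Col6a3), early and late (Mmp14) or at 4 h (Timp3) and of Lrat, which fell. These matches are letters in a window and were not tied to binding by any data here.

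Adding sham replicate 2 gives 2 sham libraries for the 20 of the 40 genes that its table lists, tested among 8026 genes. There 6 of the 20 were higher and 0 lower at 120 h, beside 0.311% and 0.262% of those genes, namely Col3a1, Col4a1, Col4a2, Lamc1, Sparc and Vim. At 168 h 9 were higher and 0 lower, beside 1.71% and 2.14%, namely Col1a1, Col3a1, Col14a1, Col4a1, Col4a2, Lamc1, Sparc, Vim and Pdgfrb. These genes had passed a higher level to be listed, so the share is not comparable with that of the 38.

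A further 6 lists of genes that process, bind or signal to the matrix, drawn up by function, were counted in the fit of 16 libraries. Among collagen folding and processing genes, 11 of 24 tested differed among the 9 groups, beside 42.8% of all genes, as for the counts among groups that follow. At 72 h against sham 3 were higher and 0 lower, beside 2.53% and 1.29% of all genes: Serpinh1, the collagen chaperone HSP47 (1.67 ± 0.35 SE, adjusted p = 0.0184), Pcolce, which enhances removal of the procollagen C-propeptide (1.85 ± 0.40 SE, adjusted p = 0.023), and Crtap, part of the prolyl 3-hydroxylation complex (1.16 ± 0.25 SE, adjusted p = 0.0237). At 24 h against 4 h 5 were higher and 0 lower, beside 11.7% and 10.7%.

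Among other collagens and fibril partners, 12 of 25 differed among the groups, a share near that of all genes. At 72 h 2 were higher and 1 lower, beside 2.53% and 1.29%. Col27a1, a fibrillar collagen best known from cartilage, was lower at 72 h (-2.31 ± 0.34 SE, adjusted p = 0.00457) and at 4 h (-1.77 ± 0.34 SE, adjusted p = 0.00403). It was also lower at 24 h (-1.89 ± 0.34 SE, adjusted p = 0.0128), 48 h (-2.38 ± 0.34 SE, adjusted p = 0.00114) and 120 h (-1.98 ± 0.34 SE, adjusted p = 0.0497). Efemp2, an elastic fibre protein also called fibulin-4, was higher at 72 h (2.12 ± 0.44 SE, adjusted p = 0.018). Of the other basement membrane genes 6 of 16 differed, beside 42.8% of all genes, and Smoc2 was the 1 called at 72 h (2.29 ± 0.46 SE, adjusted p = 0.0153), while Lama3, a laminin alpha chain, was lower at 48 h (-2.46 ± 0.59 SE, adjusted p = 0.0167).

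Of the matrix proteases and inhibitors 16 of 21 differed among the groups, beside 42.8% of all genes. At 4 h 6 were higher and 3 lower, beside 7.22% and 8.25%. Among the higher ones were the protease gene Adamts1 (2.20 ± 0.28 SE, adjusted p = 0.000243) and Ctsl, which encodes cathepsin L (1.54 ± 0.23 SE, adjusted p = 0.000798), while the membrane metalloproteinase gene Mmp15 was lower (-1.82 ± 0.33 SE, adjusted p = 0.00249). Of matrix receptors 12 of 23 differed, beside the same 42.8%, and the smallest p at 48 h was that of Itga5, the integrin alpha chain of the fibronectin receptor (1.95 ± 0.31 SE, adjusted p = 0.00217).

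Among signals that act on stellate cells, 12 of 27 differed among the groups, a share near the 42.8% of all genes. At 4 h 2 were higher and 2 lower, beside 7.22% and 8.25%. They were Tgfb3, a TGF-beta ligand with 5 reads in sham replicate 1 (3.38 ± 0.56 SE, adjusted p = 0.00143), Ctgf, a matricellular growth factor now named Ccn2 (1.69 ± 0.52 SE, adjusted p = 0.0437), Cxcl12, a chemokine (-1.25 ± 0.18 SE, adjusted p = 0.000654), and Smad3, a transducer of TGF-beta signals (-1.42 ± 0.28 SE, adjusted p = 0.00451). At 4 h the neutrophil list of 4 genes summed to 107 and 49.8 CPM against 12.5 CPM in sham, and the cholangiocyte list to 156 and 94.2 CPM against 39.0 CPM. Spp1 (91.4 and 58.8 CPM at 4 h against 26.4 CPM in sham) and Sox9 (59.4 and 33.8 CPM against 10.8 CPM) made up nearly all of the cholangiocyte sum. The defining markers Krt7 (0.638 and 0.156 CPM against 0.249 CPM) and Epcam (2.07 and 0.780 CPM against 0.998 CPM) lay on both sides of sham. Krt19 lay above sham in both 4 h libraries (2.07 and 0.624 CPM against 0.499 CPM). Cftr was at 0.479 CPM in 4 h replicate 1 and at 0 in 4 h replicate 2 and in sham. The part of neutrophil or duct cells in the 4 h values was not tested.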

How the data were processed

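Per the labels' protocols, total RNA of 3 liver samples of 1 time point was pooled, poly(A) RNA was selected, and cDNA was primed with random hexamers after fragmentation; reads were placed on mm10, as the submitters' processing notes list it, by an aligner and a counting tool not given in the sources used here. The deposited tables hold, per gene, the authors' read counts, their RPKM values and, per the file headers, a coverage percent of the gene model; the header totals equal the summed counts in the 16 complete tables, and RPKM is the count scaled by that total and the gene model's length.

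The tests used edgeR 4.0.16 under R 4.3.3 on the deposited counts (TMM factors, quasi-likelihood F test, Benjamini-Hochberg adjustment over all genes tested, threshold 0.05) in 1 fit of 9 groups, with 7 residual degrees of freedom. A gene was tested where 2 or more libraries reached the CPM equal to 10 reads at median depth and all libraries together held 15 reads. Standard errors are the fold change divided by the square root of F. P-values measure the spread between pools, which the labels do not tie to separate experiments. On simulated data the fit recovered 26% of 2-fold and 86% of 4-fold changes for 48 h against sham (10 of 122 calls false, 11996 genes), and 58% and 95% for 72 h against 24 h (8 of 161 false, 11993 genes). The changed genes, 100 per fold size, were drawn from genes averaging at least 20 reads, and the other genes had the same mean share in all simulated libraries. These rates therefore do not cover genes of fewer reads or contrasts in which many genes change. DESeq2 1.42.0 and limma 3.58.1 were alternatives; RPKM values, deposited by the authors, were used for levels between genes and in limma. Positions and exon overlaps come from GENCODE M21 and promoters from RefSeq, and figures were drawn with matplotlib 3.10.9. The 40 genes and all lists were chosen with earlier results of these data known. Values in every library are given for the 20 called genes with the largest fold changes against sham and the most abundant gene of each role. Mmp10, Mmp16, Lep and Ly6g of the lists were not matched to a row. The values of 1 further gene of the lists are not reported here.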

Additional observations from a re-analysis of the deposited data

How the results depend on the processing

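No call of a named gene changed direction in any alternative: of 1751 values for the 65 calls, 1513 stayed past the threshold and 238 did not, and 15 calls passed in every alternative that gave them a value (Eln, Col1a1, Sparc and Loxl2 at 72 h and Col4a1 at 4 and 48 h against sham among them). RLE size factors and the stricter filter left all counts within 1.5 times. Library totals alone gave 0 calls (2 h), 3 (24 h) and 0 (120 h), and mean stellate list sums of 204, 182, 196, 192, 233 and 218 CPM at 2, 4, 24, 48, 72 and 168 h, against 234, 228, 176, 167, 209 and 219 CPM with TMM; the portal fibroblast and smooth muscle list at 4 h summed to 21.4 against 26.9 CPM. DESeq2 called 3 (24 h), 9 (120 h), 11 (168 h) and 4 (168 h against 72 h). Limma on log2 CPM called 3 (24 h) and 2 (168 h). On log2(RPKM + 1) it called 0 (2 h), 3 (4 h) and 0 (120 h). On log2(RPKM + 0.1) it called 0 (2 h), 2 (4 h), 3 (24 h), 0 (120 h) and 7 (72 h against 24 h). With no filter the calls were 2 (2 h), 7 (24 h), 17 (120 h), 18 (168 h) and 9 (168 h against 72 h). Fits that add the short tables test fewer genes. With 18 libraries (10 genes) 8 differed among groups, with calls of 5 (24 h), 7 (48 h), 5 (72 h), 4 (120 h), 5 (168 h) and 3 (72 h against 24 h). With 17 libraries (20 genes) 16 differed, with calls of 6 (24 h), 11 (72 h), 6 (120 h), 9 (168 h) and 7 (72 h against 24 h). With sham replicate 2 in place of replicate 1, 14 differed, with calls of 3 (4 h), 2 (24 h), 8 (48 h), 9 (72 h), 1 (168 h) and 7 (72 h against 24 h). Fits of a single pair of groups called 3 (2 h), 22 (48 h), 5 (120 h), 19 (168 h), 1 (24 h against 4 h) and 7 (72 h against 24 h). Apart from the fewer genes and samples, the cause of these shifts was not tested. Leaving out 1 library at a time gave 26 to 31 genes differing among groups. The calls were then 0 to 0 (0.5 h), 0 to 1 (2 h), 1 to 7 (4 h), 1 to 4 (24 h), 6 to 16 (48 h), 4 to 20 (72 h), 0 to 3 (120 h) and 0 to 6 (168 h) against sham, and 4 to 7 (24 h against 4 h), 4 to 19 (72 h against 24 h) and 0 to 7 (168 h against 72 h) between times. With a replicate block the calls were 0 (2 h), 0 (120 h) and 17 (72 h). Whether the replicate numbers pair the libraries is not known. Deviations of same-numbered libraries correlated by -0.39 to 0.31 (median 0.02) over 21 pairs of groups, 7 of them above 0.1. Such values cannot exclude a pairing in some of the groups. With 2 pools a group and 1 complete sham library, genes of a few reads, such as Timp1 and Lox, cannot be read for change.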
